A study of Mus musculus with 16 samples.

Results

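The genes described here encode 10 keratins, the proteins of the intermediate filaments of epithelial cells, in 3 classes: the basal keratins Krt5, Krt14, Krt15 and Krt17, the simple epithelial keratins Krt7, Krt8, Krt18 and Krt19, and the suprabasal keratins Krt1 and Krt10. The members were the peaks annotated to one of these genes in a merged table of H3K4me2 peaks, taken singly and summed per gene. They came to 18 of the 29470 peaks kept and to 9 of the 15739 genes with a peak. Krt15 carried no peak under its name and was not analysed here. The basal class held 4 peaks on 3 genes, the simple class 9 peaks on 4 genes and the suprabasal class 5 peaks on 2 genes.

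The study measured dimethylation of histone H3 at lysine 4 by indexed chromatin immunoprecipitation and sequencing in medullary thymic epithelial cells (mTECs) sorted from C57BL/6 mouse thymus. There were 4 populations, each with 2 libraries, and all were sorted as CD45- Epcam+. mTEC-I was further sorted as MHCIIlow Itgb4+, mTEC-II as MHCIIhigh, mTEC-III as Ly6D+ and mTEC-IV as MHCIIlow Itgb4- L1cam+. The labels describe each as cells enriched for a population, name no genetic alteration or treatment, and do not say how many mice or sorts a library came from, so the p-values measure the spread between these libraries, which may be technical. The 2 libraries of mTEC-II differed by no more than the sampling noise and were counted as 1 sample, so mTEC-II values have no SD.

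Keratins work as obligate pairs of a type I and a type II chain. Krt5 pairs with Krt14 in the basal layer of stratified epithelia, Krt8 with Krt18 in simple epithelia, and Krt1 with Krt10 in the layers above the basal one. In the thymus, Krt5 and Krt14 mark much of the medullary epithelium, Krt8 and Krt18 are best known from the cortex and from simple-type cells that include tuft cells, and Krt10 is found in the terminally differentiated cells of the medulla around Hassall's corpuscles. H3K4me2 is a histone mark found at promoters and enhancers. The genes with a peak lay in the 2 keratin clusters: Krt5, Krt7, Krt8, Krt18 and Krt1 on chromosome 15 and Krt14, Krt17, Krt19 and Krt10 on chromosome 11, so neighbouring members are not independent of each other.

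The promoters below show the letters next to the start sites whose peaks the results turn on, at least 1 for each class. Each is the 250 bases before the start in RefSeq (build GRCm38.p6), printed 5′ to 3′ on the gene's strand. Capitals mark a match on either strand to the TATA box TATAAA, the AP-1 motif TGANTCA, the GC box GGGCGG or the CCAAT box CCAAT. The windows are chr15:101712906-101713155 (minus strand) for Krt5, chr15:102004343-102004592 (minus) for Krt8, chr15:102027966-102028215 (plus) for Krt18 and chr11:99389365-99389614 (minus) for Krt10.
Krt5: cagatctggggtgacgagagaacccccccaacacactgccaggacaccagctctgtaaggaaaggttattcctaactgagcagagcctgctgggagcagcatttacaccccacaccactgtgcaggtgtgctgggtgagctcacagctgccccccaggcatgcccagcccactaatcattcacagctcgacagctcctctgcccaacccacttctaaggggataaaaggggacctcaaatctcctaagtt
Krt8: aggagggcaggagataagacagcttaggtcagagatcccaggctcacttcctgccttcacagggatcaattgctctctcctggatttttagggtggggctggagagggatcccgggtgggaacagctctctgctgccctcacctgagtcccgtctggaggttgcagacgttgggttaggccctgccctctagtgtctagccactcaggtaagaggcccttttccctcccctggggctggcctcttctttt
Krt18: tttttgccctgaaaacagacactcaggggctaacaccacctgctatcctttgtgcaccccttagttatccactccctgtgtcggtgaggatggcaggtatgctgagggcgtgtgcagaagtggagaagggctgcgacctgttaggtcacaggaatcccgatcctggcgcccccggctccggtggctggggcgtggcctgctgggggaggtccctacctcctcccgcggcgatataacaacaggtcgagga
Krt10: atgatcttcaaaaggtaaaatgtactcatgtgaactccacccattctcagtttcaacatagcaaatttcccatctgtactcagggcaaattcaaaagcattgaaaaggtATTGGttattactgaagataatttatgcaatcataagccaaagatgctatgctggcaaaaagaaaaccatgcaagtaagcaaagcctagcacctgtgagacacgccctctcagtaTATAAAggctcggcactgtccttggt

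None of the 4 motifs was found in the windows of Krt5, Krt8 or Krt18. The Krt10 window held a TATA box from 26 to 21 bases before the start and, on the other strand, a CCAAT box from 141 to 137 bases before it. The Krt7 window, which is not printed, held 4 GC boxes. Of all 32851 promoter windows of this length, 12.4% held the TATA box, 6.75% the AP-1 motif, 32.7% the GC box and 33.8% the CCAAT box. The motifs did not overlap in these windows. A match is a description of letters and not a binding site. The table held a window for 6 of the 10 genes. That of Krt14 was not used, because its start lies 1.48 kb inside the span of a gene with 3 curated transcripts. The RefSeq span of Krt10, which has 1 curated transcript, reaches 8.09 kb further upstream than the start used here.

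The unit throughout is the authors' level, the sequence tags in a peak per 10000000 tags of the library. A library held 1702103.5 to 15412132.5 tags, of which 31.9% to 35.4% lay in peaks, and 1 tag was worth 5.88 in mTEC-I replicate 2, the shallowest library, and 0.649 in the deepest. The gates of mTEC-III and mTEC-IV could be followed at Ly6d and L1cam. Ly6d was at 315 and 351 in mTEC-III, against 69.2 to 114 in the other populations, and L1cam at 181 and 200 in mTEC-IV, against 42.9 to 82.3. Itgb4 was at 330 and 285 in the mTEC-I libraries, 242 and 240 in those of mTEC-II, 234 and 216 in those of mTEC-III and 225 and 224 in those of mTEC-IV, and Ptprc, the gene of CD45, which all gates leave out, at 269 and 265 in mTEC-IV, against 30.0 to 48.9 elsewhere. The class II gene H2-Aa was at 457 and 432 in mTEC-I and at 406 and 398 in mTEC-II, and these populations of the MHCIIlow and MHCIIhigh gates were not told apart there (mTEC-I over mTEC-II, log2 difference 0.14, SE 0.14, limma adjusted p = 0.553). Nor were they at H2-Ab1 and H2-Eb1, which leaned to mTEC-II (-0.15 and -0.09, limma adjusted p = 0.434 and 0.618). H2-Aa, H2-Ab1 and H2-Eb1 were higher in mTEC-II than in the MHCIIlow mTEC-IV, by 0.73, 0.72 and 0.525 (limma adjusted p = 0.00133, 0.000336 and 0.00134). They were also higher in mTEC-I than in mTEC-IV, by 0.875, 0.56 and 0.44 (limma adjusted p = 1.42e-05, 0.000195 and 0.000494). Of 12 thymocyte genes, 10 had no peak, among them Cd3e, Cd4 and Rag1. The sources used here do not give how reads that match several keratin genes or pseudogenes were treated, and levels of such close copies are uncertain to that extent.

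Every one of the 9 keratin genes with a peak differed between the populations in a limma F test (adjusted p from 9.6e-10 for Krt17 to 0.0132 for Krt1), a result that 42.7% of all 15738 genes tested also reached. Among the 54 combinations of a keratin gene with a pair of populations, 32 passed at an adjusted p under 0.05, against 19.9% over all genes. Over 24 alternative analyses, 25 of those 32 calls held in each one that could be run. The 3 basal genes were lowest in mTEC-IV. Of the simple genes, Krt8, Krt18 and Krt19 were highest in mTEC-IV and Krt7 was highest in mTEC-I. The suprabasal gene Krt10 was highest in mTEC-III. The plot of levels by library shows the 9 genes side by side.

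**Figure D1:**
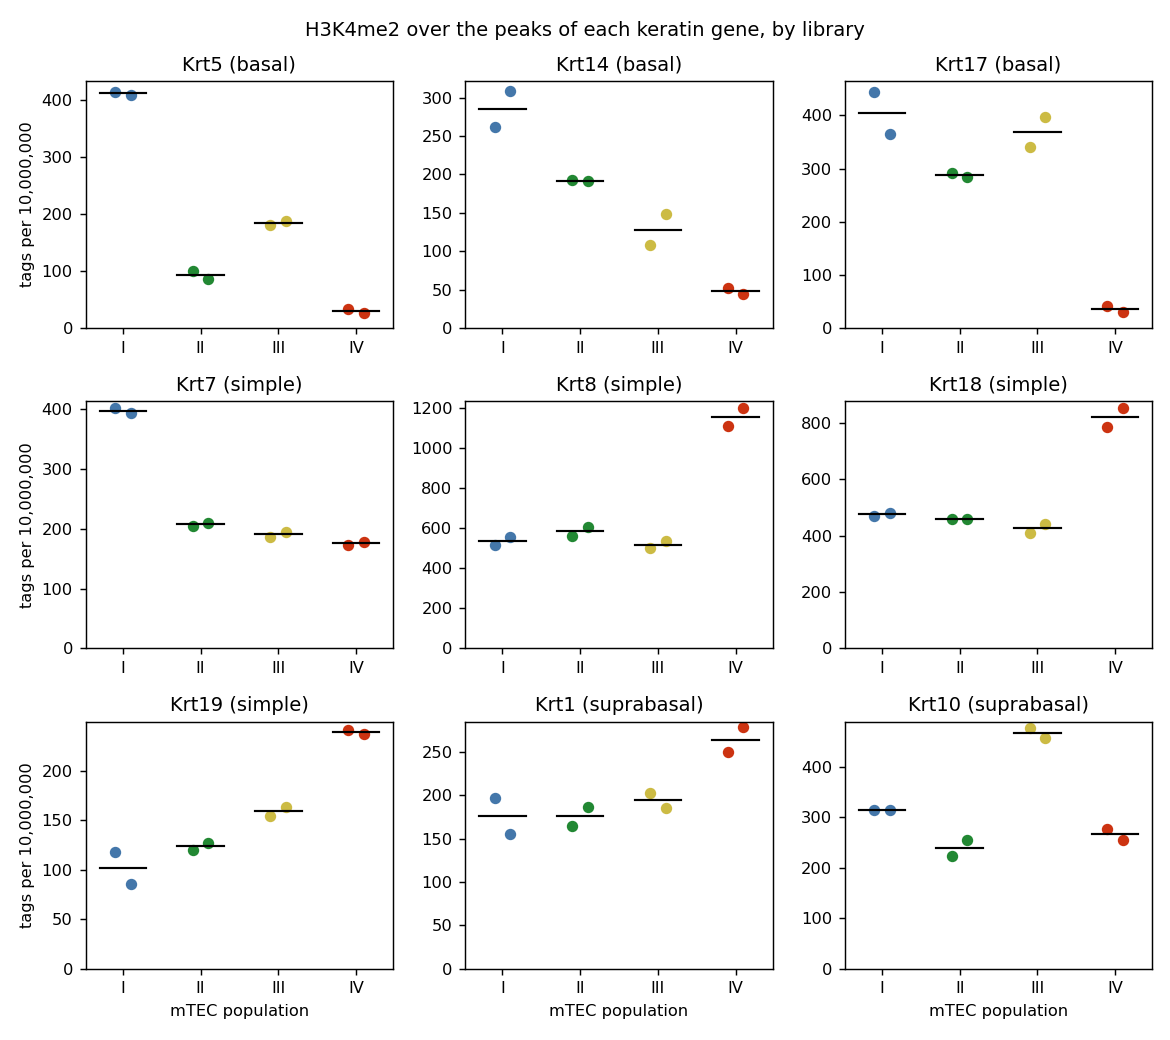
H3K4me2 summed over the peaks of each keratin gene, in tags per 10000000 (vertical axis, from 0), in the 4 mTEC populations (horizontal axis). Points are libraries and bars population means; mTEC-IV lies below every other library for Krt5, Krt14 and Krt17 and above every other one for Krt8, Krt18, Krt19 and Krt1.

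Krt5, the basal type II keratin, separated all 4 populations. Its level was 413 and 408 in mTEC-I libraries, 99.9 and 85.5 in mTEC-II libraries, 180 and 187 in mTEC-III libraries and 33.0 and 26.3 in mTEC-IV libraries. No 2 populations overlapped, and the order from high to low was mTEC-I, mTEC-III, mTEC-II, mTEC-IV, with a highest mean 13.86 times the lowest. mTEC-I averaged 411 ± 3.46, mTEC-III 184 ± 5.26 and mTEC-IV 29.6 ± 4.74 (SD, n = 2 each). In limma with Benjamini-Hochberg adjustment over all genes, mTEC-I exceeded mTEC-IV by 3.76 on the log2 scale (SE 0.17, adjusted p = 2.11e-10), mTEC-II by 2.14 (SE 0.21, adjusted p = 9.95e-06) and mTEC-III by 1.16 (SE 0.17, adjusted p = 0.000115). mTEC-II in turn exceeded mTEC-IV by 1.62 (SE 0.21, limma adjusted p = 4.96e-05), and mTEC-III exceeded mTEC-IV by 2.60 (SE 0.17, limma adjusted p = 1.66e-08). The step between the middle populations was mTEC-II below mTEC-III by a log2 difference of -0.98 (SE 0.21, limma adjusted p = 0.00942). It missed the threshold without mTEC-III replicate 1 (limma adjusted p = 0.104) and without mTEC-III replicate 2 (0.0876), and its adjusted p ran from 8.23e-12 to 0.104 over the alternatives.

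Krt14, the type I partner of Krt5, followed another order below mTEC-I. Its single peak, at chr11:100065091-100069337 (mm9, as are all peak coordinates), covered the start site and is annotated to intron 1. The level was 262 and 308 in the mTEC-I libraries, 192 and 191 in those of mTEC-II, 108 and 148 in those of mTEC-III and 52.2 and 44.8 in those of mTEC-IV. The libraries of the 4 populations did not overlap, but neighbours in the order were not all told apart: mTEC-I over mTEC-II was 0.57 on the log2 scale (SE 0.23, limma adjusted p = 0.141) and mTEC-II over mTEC-III 0.60 (SE 0.23, limma adjusted p = 0.13). mTEC-I exceeded mTEC-III by 1.16 (SE 0.19, limma adjusted p = 0.000229), and mTEC-I, mTEC-II and mTEC-III exceeded mTEC-IV by 2.53, 1.96 and 1.37 on the log2 scale (limma adjusted p = 3.38e-08, 1.71e-05 and 3.85e-05). Krt5 thus placed mTEC-III above mTEC-II while the Krt14 mean was higher in mTEC-II (192) than in mTEC-III (128 ± 28.2 SD, n = 2); whether the genes differ in this step was not tested.

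Krt17, a basal-class keratin that is induced in wounded and activated epidermis, split the populations into mTEC-IV and the rest. Its peak at chr11:100117384-100123486 covered the start site and reached 4.96 kb into the gene. The level was 444 and 364 in mTEC-I libraries, 291 and 285 in mTEC-II libraries, 341 and 396 in mTEC-III libraries and 41.8 and 30.5 in mTEC-IV libraries. mTEC-I and mTEC-III overlapped, and no mTEC-IV library came near the others. mTEC-I, mTEC-II and mTEC-III exceeded mTEC-IV by 3.46, 2.98 and 3.33 on the log2 scale (SE 0.17, 0.20 and 0.17; limma adjusted p = 3.58e-10, 1.12e-07 and 1.09e-09). The 3 other pairs ran from -0.35 to 0.48 and did not pass (limma adjusted p from 0.159 to 0.624). The mTEC-IV library with the fewest tags held 25.5 in this peak.

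All 3 basal genes were higher in mTEC-I than in mTEC-IV, where 12.6% of all genes were, and likewise all 3 in mTEC-II over mTEC-IV (5.07% of all genes) and in mTEC-III over mTEC-IV (10.3%). The median log2 difference of the basal genes was 3.46, 1.96 and 2.60 in these pairs, against 0.02, -0.08 and -0.01 over all genes tested. With 3 genes of 2 clusters, nothing further is read from these medians. Of these 3 pairs, fibroblast genes moved mostly in the same direction in mTEC-I over mTEC-IV alone. Of 10 listed genes 7 had a peak, and 4 of these were higher there and 1 lower (12.6% and 18.7% of all genes). In mTEC-II and mTEC-III over mTEC-IV, 0 were higher, and 1 and 3 were lower (9.73% and 18.4%). Fibroblast genes were also high in mTEC-I in its other pairs. In mTEC-I over mTEC-III, 5 were higher and 0 lower (13.8% and 12.7% of all genes), where 2 basal genes were higher. In mTEC-I over mTEC-II, 3 were higher and 0 lower (583 and 1001 of all 15738 genes), where 1 basal gene was higher. The summed level of the fibroblast genes was 1053 and 1257 in the mTEC-I libraries, 626 and 633 in those of mTEC-II, 394 and 473 in those of mTEC-III and 693 and 730 in those of mTEC-IV, and Col1a2, Col3a1 and Lum had no peak. The part of the fibroblast list in the levels of the basal keratins and of Krt7 was not tested.

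**Figure D2:**
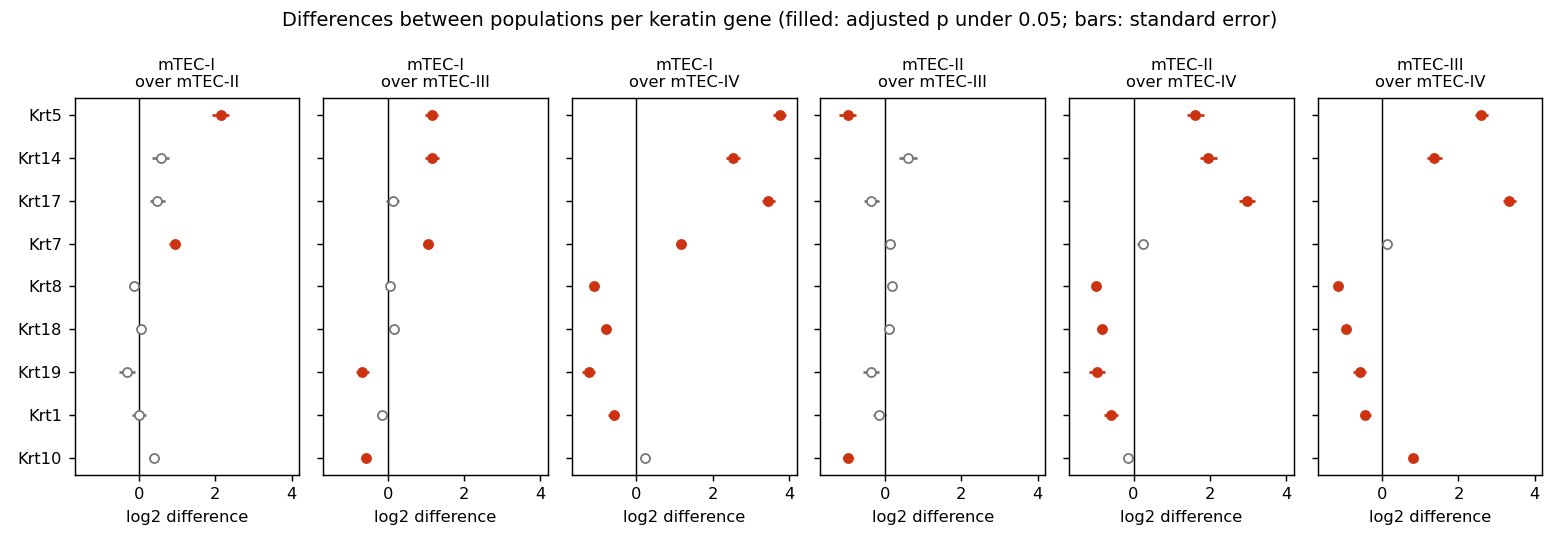
Log2 difference of the level of each keratin gene (rows) for the 6 pairs of populations (panels), with standard errors; filled points passed an adjusted p under 0.05. In the 3 panels over mTEC-IV the basal genes lie right of 0 and Krt8, Krt18, Krt19 and Krt1 left of it.

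Krt8 and Krt18, the type II and type I chains of the simple epithelial pair, were both higher in mTEC-IV than in each other population. Krt8 was at 515 and 558 in mTEC-I libraries, 563 and 608 in mTEC-II libraries, 499 and 537 in mTEC-III libraries and 1108 and 1198 in mTEC-IV libraries. Krt18 was at 471 and 482 in the mTEC-I libraries, 458 and 461 in those of mTEC-II, 409 and 442 in those of mTEC-III and 787 and 854 in those of mTEC-IV. For both genes the mTEC-IV libraries lay far above the 6 others, which ran together. For Krt8 the log2 differences of mTEC-I, mTEC-II and mTEC-III over mTEC-IV were -1.10, -0.98 and -1.15 (SE 0.09, 0.11 and 0.09; limma adjusted p = 6.8e-08, 8.56e-06 and 6.11e-08). For Krt18 they were -0.78, -0.83 and -0.94 (SE 0.09, 0.11 and 0.09; limma adjusted p = 5.62e-06, 6.62e-05 and 9.24e-07). Neither gene separated mTEC-I, mTEC-II and mTEC-III from each other (log2 differences from -0.13 to 0.18, limma adjusted p from 0.218 to 0.81).

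Krt19, the type I simple keratin with a shortened tail, ranked the populations in the opposite order to Krt14. It was at 118 and 85.2 in mTEC-I libraries, 120 and 127 in mTEC-II libraries, 154 and 164 in mTEC-III libraries and 241 and 237 in mTEC-IV libraries. The libraries of the 4 populations did not overlap. The log2 differences of mTEC-I, mTEC-II and mTEC-III over mTEC-IV were -1.25, -0.95 and -0.59 (SE 0.17, 0.21 and 0.17; limma adjusted p = 2.69e-05, 0.00466 and 0.0153), and mTEC-I lay below mTEC-III by -0.66 (SE 0.17, limma adjusted p = 0.00824). The steps mTEC-I to mTEC-II and mTEC-II to mTEC-III were not told apart (-0.30 and -0.36, limma adjusted p = 0.395 and 0.336). The call of mTEC-III against mTEC-IV was lost without mTEC-III replicate 1 (limma adjusted p = 0.14), mTEC-III replicate 2 (0.0794), mTEC-IV replicate 1 (0.113) or mTEC-IV replicate 2 (0.103), within a range from 1.06e-05 to 0.14. That of mTEC-I against mTEC-III was lost without mTEC-III replicate 1 (0.0673), without mTEC-III replicate 2 (0.0947) and without the distal peak (-0.34, limma adjusted p = 0.325), within a range from 1.8e-06 to 0.336.

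Krt7, a type II keratin of glandular and ductal epithelia, was the simple keratin that did not follow Krt8 and Krt18. Its peak at chr15:101240760-101245823 covered the start site and is annotated to intron 1. The level was 402 and 394 in the mTEC-I libraries, 205 and 210 in those of mTEC-II, 185 and 195 in those of mTEC-III and 173 and 178 in those of mTEC-IV. Both mTEC-I libraries lay above all others, by 0.93, 1.06 and 1.17 on the log2 scale over mTEC-II, mTEC-III and mTEC-IV (SE 0.15, 0.12 and 0.12; limma adjusted p = 0.000713, 1.07e-05 and 1.54e-06). The other 3 pairs ran from 0.12 to 0.24 and were not told apart (limma adjusted p from 0.378 to 0.672). Tuft cell genes were also high in mTEC-IV: 6 of 7 listed genes had a peak and all 6 were higher there than in mTEC-I (18.7% of all genes were), than in mTEC-II (9.73%) and than in mTEC-III (18.4%). Their summed level was 951 and 958 in mTEC-I libraries, 955 and 1065 in mTEC-II libraries, 1096 and 1078 in mTEC-III libraries and 3982 and 4141 in mTEC-IV libraries, and Chat had no peak. Endothelial genes summed to 971 and 911 in the mTEC-I libraries, 902 and 873 in those of mTEC-II, 627 and 738 in those of mTEC-III and 1542 and 1519 in those of mTEC-IV, with 7 of 8 genes having a peak and Tie1 none. Of the endothelial genes, mTEC-IV was higher for 4 against mTEC-I (18.7% of all genes), 4 against mTEC-II (9.73%) and 6 against mTEC-III (18.4%). It was lower for 0. Pecam1 had its lowest mean in mTEC-IV (59.7), and the Kdr mean was 243 in mTEC-I and 222 in mTEC-IV. Neither gene was called between mTEC-I and mTEC-IV. The part of the tuft cell or endothelial list in the levels of Krt8, Krt18 and Krt19 was not tested. In bulk chromatin a change in the share of cells cannot be told apart from a change in each cell.

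Krt10, the type I suprabasal keratin, was highest in mTEC-III. It was at 316 and 314 in mTEC-I libraries, 224 and 255 in mTEC-II libraries, 477 and 457 in mTEC-III libraries and 277 and 256 in mTEC-IV libraries. Both mTEC-III libraries lay above all 6 others. mTEC-I and mTEC-II fell below mTEC-III by -0.57 and -0.96 on the log2 scale (SE 0.11 and 0.13; limma adjusted p = 0.000932 and 0.000386), and mTEC-III exceeded mTEC-IV by 0.81 (SE 0.11, limma adjusted p = 2.91e-05). The 3 pairs among mTEC-I, mTEC-II and mTEC-IV did not pass (log2 differences from -0.15 to 0.39, limma adjusted p from 0.0728 to 0.577). With the peak at the start alone, mTEC-I against mTEC-III came to -0.28 (limma adjusted p = 0.162, within a range from 1.36e-05 to 0.162 over the alternatives). Cornified epithelium genes were also high in mTEC-III: 8 of 10 listed genes had a peak, 6 were higher there than in mTEC-I (12.7% of all genes were) and 4 than in each of mTEC-II (3.99%) and mTEC-IV (10.3%). Tgm3, an epidermal transglutaminase picked out after its values were seen, went the other way: mTEC-I and mTEC-II exceeded mTEC-III by 0.79 and 1.06 on the log2 scale (limma adjusted p = 0.00549 and 0.0104). For the list, the summed level was 570 and 599 in the mTEC-I libraries, 560 and 580 in those of mTEC-II, 1154 and 1131 in those of mTEC-III and 545 and 501 in those of mTEC-IV. Flg and Sprr1b had no peak, and the part of such cells in the Krt10 level was not tested.

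The level summed for Krt1, the type II partner of Krt10, did not share the Krt10 pattern. It takes in a peak in the gene, not past the F test (limma adjusted p = 0.914), and a peak annotated to exon 9 of the neighbouring gene Krt77. It was at 197 and 156 in mTEC-I libraries, 164 and 187 in mTEC-II libraries, 203 and 185 in mTEC-III libraries and 250 and 278 in mTEC-IV libraries. The mTEC-IV libraries were the highest and the 6 others overlapped. mTEC-I, mTEC-II and mTEC-III lay below mTEC-IV by -0.59, -0.58 and -0.44 on the log2 scale (SE 0.15, 0.18 and 0.15; limma adjusted p = 0.00552, 0.0376 and 0.0324). The F test was lost without mTEC-IV replicate 1 (limma adjusted p = 0.0649) and without mTEC-IV replicate 2 (0.222), within a range from 2.81e-06 to 0.222. Without mTEC-IV replicate 2 the 3 pairs came to -0.51, -0.51 and -0.36 (limma adjusted p = 0.093, 0.262 and 0.274). mTEC-II against mTEC-IV was also lost without mTEC-II replicate 1 (0.0802), mTEC-III replicate 1 (0.0814), mTEC-III replicate 2 (0.0785) or mTEC-IV replicate 1 (0.0955), and with each of the 4 other scalings: equal totals in peaks (limma adjusted p = 0.11), TMM (0.072), RLE (0.0546) and cyclic loess (0.0726). Its adjusted p ran from 3.06e-07 to 0.262 over the alternatives. mTEC-III against mTEC-IV was also lost without mTEC-III replicate 1 (0.109), mTEC-III replicate 2 (0.212) or mTEC-IV replicate 1 (0.0878) and with equal totals in peaks (limma adjusted p = 0.0719), within a range from 0.000526 to 0.274.

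Counted by pair, 2 of the 9 genes passed for mTEC-I over mTEC-II (10.1% of all genes did), 5 for mTEC-I over mTEC-III (26.5%), 8 for mTEC-I over mTEC-IV (31.3%), 2 for mTEC-II over mTEC-III (8.08%), 7 for mTEC-II over mTEC-IV (14.8%) and 8 for mTEC-III over mTEC-IV (28.7%). Against mTEC-IV, the 4 genes Krt8, Krt18, Krt19 and Krt1 were lower in each of mTEC-I, mTEC-II and mTEC-III (18.7%, 9.73% and 18.4% of all genes were). Krt10 was the gene that missed against mTEC-IV in mTEC-I, Krt7 the one in mTEC-III, and both missed in mTEC-II.

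Summed by class, the basal genes made up 35.7% and 35.2% of the tags of the 9 genes in the mTEC-I libraries, 25.2% and 23.3% in the mTEC-II libraries, 24.6% and 26.96% in the mTEC-III libraries and 4.29% and 3.27% in the mTEC-IV libraries. The simple genes made up 48.0% and 49.5% in the mTEC-I libraries, 58.1% and 58.4% in the mTEC-II libraries, 48.8% and 49.4% in the mTEC-III libraries and 77.9% and 79.5% in the mTEC-IV libraries. The suprabasal genes made up 26.6% and 23.7% in mTEC-III and 15.3% to 18.4% in the other libraries. As a ratio, the basal sum was 0.743 and 0.712 of the simple sum in mTEC-I libraries, 0.433 and 0.399 in mTEC-II libraries, 0.504 and 0.546 in mTEC-III libraries and 0.055 and 0.041 in mTEC-IV libraries. These sums describe the libraries and were not tested.

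**Figure D3:**
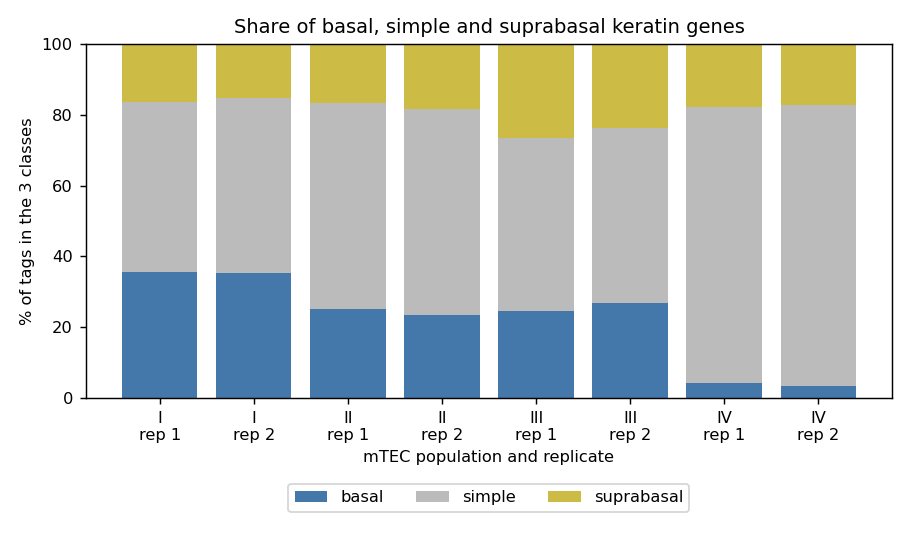
Share of the tags in the peaks of the 9 keratin genes that fell in the basal, simple and suprabasal class (stacked bars, percent), for each library. The basal share is 35.2% and 35.7% in the mTEC-I libraries and 3.27% and 4.29% in the mTEC-IV libraries.

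Per length of peak, which allows levels of different genes to be set side by side, Krt7 had the highest level in mTEC-I (78.5 tags per 10000000 and kb), ahead of Krt5 (68.8), Krt14 (67.1) and Krt17 (66.2). In mTEC-II the highest were Krt17 (47.2) and Krt14 (45.1), and in mTEC-III Krt17 (60.4) and Krt10 (47.3). In mTEC-IV the 3 basal genes were the lowest, at 4.96 for Krt5, 5.92 for Krt17 and 11.4 for Krt14, and Krt1 (62.8), Krt18 (62.3) and Krt8 (53.6) the highest. For Krt1, the mTEC-IV level was 83.3 at the peak annotated to Krt77 and 41.8 at the peak in the gene. The Krt8 peak over the start was 12.4 kb long, where the median of all merged peaks was 2.14 kb and 0.244% were longer.

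The single peaks were tested in the same way. Of the 18, 15 passed the limma F test across populations, against 45.3% of the 29469 peaks tested, and 47 of 108 combinations of a peak with a pair of populations passed, against 19.2%. These counts were 10 to 17 and 30 to 61 when 1 library was left out, with 30 and 32 pairs called without mTEC-III replicate 1 and replicate 2. By pair, 3 peaks passed for mTEC-I over mTEC-II (7.71% of all peaks did), 8 for mTEC-I over mTEC-III (24.6%), 13 for mTEC-I over mTEC-IV (35.4%), 1 for mTEC-II over mTEC-III (2.75%), 9 for mTEC-II over mTEC-IV (15.2%) and 13 for mTEC-III over mTEC-IV (29.7%). The start site of the gene was covered by 7 of the 18 peaks. The plot of peak levels by distance shows the 6 genes with more than 1 peak.

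Krt5 carried its mark on both sides of the start site, and no merged peak covered the start itself. The peak in the gene (chr15:101538697-101542997, intron 4) began 324 bp downstream, and the upstream peak (chr15:101543516-101545188, intergenic) ended 194 bp before it. The peak in the gene was at 287 and 250 in the mTEC-I libraries, 67.8 and 53.7 in those of mTEC-II, 111 and 110 in those of mTEC-III and 17.6 and 8.96 in those of mTEC-IV. The upstream peak was at 126 and 159 in mTEC-I libraries, 32.1 and 31.8 in mTEC-II libraries, 68.8 and 77.7 in mTEC-III libraries and 15.4 and 17.3 in mTEC-IV libraries. The means of both had the population order of the gene sum, and both passed the F test (limma adjusted p = 1.13e-05 and 4.46e-05). mTEC-I exceeded mTEC-IV by 4.30 (SE 0.28) in the gene and by 3.04 (SE 0.25) upstream on the log2 scale (limma adjusted p = 2.22e-06 and 1.03e-05). mTEC-II and mTEC-III were not told apart at either peak (-0.85 in the gene and -1.17 upstream, limma adjusted p = 0.205 and 0.072). Upstream, mTEC-II over mTEC-IV also missed the threshold (0.93, limma adjusted p = 0.0679). The upstream peak held 34.7% of the gene's tags for mTEC-I, 34.5% for mTEC-II, 39.9% for mTEC-III and 55.2% for mTEC-IV; this share was not tested.

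The tags of Krt8 fell in a broad peak over the start (chr15:101827786-101840233, intron 1), a peak upstream (chr15:101841065-101849207, intergenic) and a short one 19.8 kb downstream of the start (chr15:101814479-101815399, intergenic). The upstream peak lies between the divergent genes Krt8 and Krt18, whose start sites are 23.9 kb apart, with its centre 10.4 kb from the Krt8 start and 13.5 kb from the Krt18 start, and is given to Krt8 by distance alone. It was at 122 and 167 in the mTEC-I libraries, 168 and 180 in those of mTEC-II, 107 and 137 in those of mTEC-III and 412 and 407 in those of mTEC-IV. Its log2 differences over mTEC-IV were -1.51, -1.23 and -1.75 for mTEC-I, mTEC-II and mTEC-III (SE 0.17, 0.21 and 0.17; limma adjusted p = 8.36e-05, 0.00348 and 5.06e-05). The peak over the start was at 355 and 347 in mTEC-I libraries, 356 and 385 in mTEC-II libraries, 370 and 375 in mTEC-III libraries and 655 and 739 in mTEC-IV libraries, with log2 differences over mTEC-IV of -0.99, -0.91 and -0.90 (limma adjusted p = 2.73e-05, 0.000686 and 8.21e-05). The downstream peak, at 21.5 to 52.6 over all libraries, did not pass the F test (limma adjusted p = 0.0772). Of its pairs 1 was called, mTEC-III below mTEC-IV by -0.98 on the log2 scale (SE 0.31, limma adjusted p = 0.0326). That call was lost without mTEC-III replicate 1 (0.178), mTEC-III replicate 2 (0.0971), mTEC-IV replicate 1 (0.104) or mTEC-IV replicate 2 (0.264) and with cyclic loess (limma adjusted p = 0.0847), within a range from 0.00308 to 0.264.

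At Krt18 the excess of mTEC-IV over each other population lay in the peak over the start (chr15:101852690-101862617), which held 71.5% to 86.4% of the gene's tags. It was at 407 and 376 in the mTEC-I libraries, 328 and 340 in those of mTEC-II, 276 and 333 in those of mTEC-III and 688 and 729 in those of mTEC-IV. mTEC-I, mTEC-II and mTEC-III lay below mTEC-IV by -0.85, -1.08 and -1.22 on the log2 scale (SE 0.11, 0.13 and 0.11; limma adjusted p = 0.000174, 0.000576 and 2.77e-05). At this peak mTEC-I also exceeded mTEC-III by 0.37 (SE 0.11, limma adjusted p = 0.0305), a call lost in 4 of 22 alternatives. The peak 6.2 kb downstream (chr15:101864057-101865647), at 27.1 to 82.2, did not pass (limma adjusted p = 0.937). The peak 14.2 kb downstream (chr15:101871980-101873636) was at 37.1 and 23.5 in mTEC-I libraries, 66.8 and 61.5 in mTEC-II libraries, 65.6 and 72.4 in mTEC-III libraries and 52.8 and 62.1 in mTEC-IV libraries, so that it was lowest in mTEC-I rather than highest in mTEC-IV. Calls lost in 2 and 7 of 22 alternatives put mTEC-I below mTEC-III (-1.19, limma adjusted p = 0.0105) and below mTEC-IV (-0.93, limma adjusted p = 0.0235) at this peak. It passed the F test (limma adjusted p = 0.0179), but not without mTEC-III replicate 1 (0.0825), mTEC-III replicate 2 (0.0928) or mTEC-IV replicate 2 (0.0537), within a range from 0.000155 to 0.0928.

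Krt19 had a peak over its start (chr11:100004426-100007400) and one 22.8 kb upstream (chr11:100028654-100031371, intergenic). The upstream peak was at 46.4 and 35.2 in the mTEC-I libraries, 52.9 and 63.7 in those of mTEC-II, 82.6 and 83.6 in those of mTEC-III and 119 and 106 in those of mTEC-IV (limma F test adjusted p = 0.00199). The peak over the start was at 71.2 and 49.9 in mTEC-I libraries, 67.1 and 63.7 in mTEC-II libraries, 71.3 and 80.1 in mTEC-III libraries and 123 and 131 in mTEC-IV libraries. Its F test (limma adjusted p = 0.00933) was lost without mTEC-IV replicate 1 (0.0754) or mTEC-IV replicate 2 (0.111), within a range from 3.49e-05 to 0.111. Both peaks were highest in the mTEC-IV libraries. At the upstream peak mTEC-III and mTEC-IV were not told apart (-0.43, limma adjusted p = 0.174). There mTEC-II lay below mTEC-IV by -0.93 (limma adjusted p = 0.04), a call lost in 7 of 22 alternatives. At the start, mTEC-II and mTEC-III lay below mTEC-IV by -0.95 and -0.74 (limma adjusted p = 0.037 and 0.0257), calls lost in 5 and 4 of 22.

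**Figure D4:**
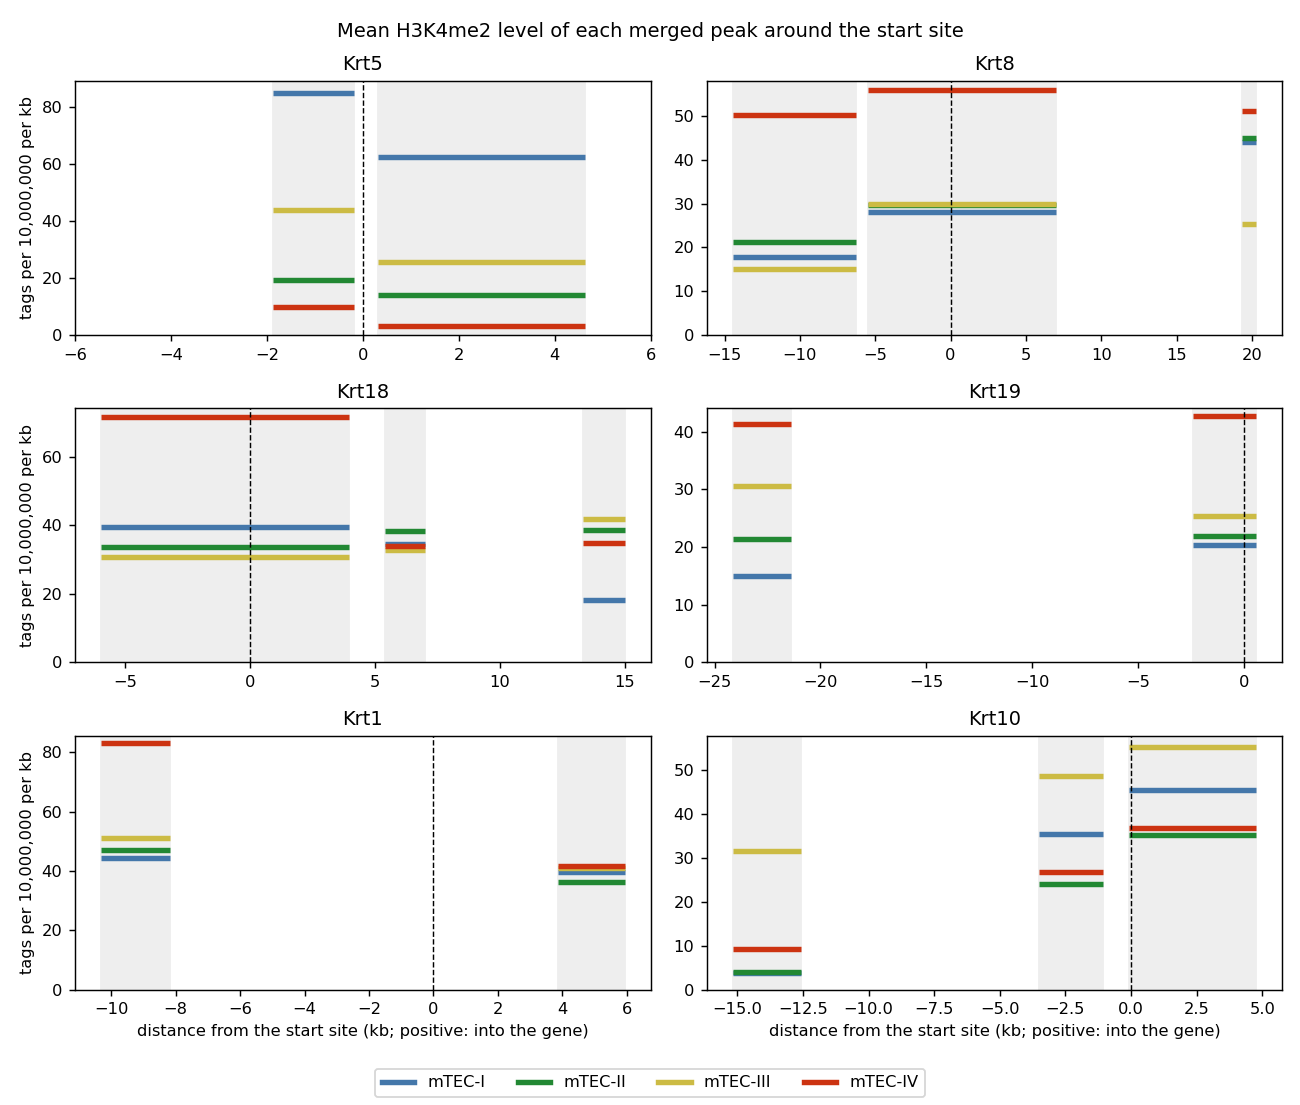
Mean H3K4me2 level per kb (vertical axis, from 0, tags per 10000000 and kb) of each merged peak of the 6 genes with more than 1 peak, against distance from the start site in kb (horizontal axis, dashed line at the start). Grey bands span the peaks and coloured lines are populations; the Krt10 peak at -13.9 kb is at 31.5 in mTEC-III and between 3.75 and 9.16 in the others.

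Krt10 had a peak over its gene body (chr11:99245904-99250754, exon 5), one 2.3 kb upstream (chr11:99251755-99254168, intergenic) and one 13.9 kb upstream (chr11:99263248-99265848, intergenic). The far peak was at 7.74 and 11.8 in the mTEC-I libraries, 12.3 and 8.89 in those of mTEC-II, 73.2 and 90.7 in those of mTEC-III and 22.5 and 25.1 in those of mTEC-IV. Both mTEC-III libraries stood well above all others, and the mTEC-I libraries rested on as few as 2 tags. The far peak passed the F test (limma adjusted p = 0.000713), and mTEC-I lay below mTEC-III by -2.97 on the log2 scale (SE 0.39, limma adjusted p = 0.000462). mTEC-II lay below mTEC-III by -2.83 (limma adjusted p = 0.012), a call lost without mTEC-III replicate 1 (0.204) or replicate 2 (0.166), within a range from 2.03e-20 to 0.204. mTEC-III exceeded mTEC-IV by 1.73 (limma adjusted p = 0.00717), a call lost without mTEC-III replicate 1 (0.0696), mTEC-III replicate 2 (0.103), mTEC-IV replicate 1 (0.076) or mTEC-IV replicate 2 (0.0633), within a range from 1e-09 to 0.103.

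The other 2 Krt10 peaks varied less. The peak over the gene body was at 220 and 220 in mTEC-I libraries, 158 and 184 in mTEC-II libraries, 288 and 247 in mTEC-III libraries and 179 and 177 in mTEC-IV libraries, and the peak 2.3 kb upstream at 88.2 and 82.2 in the mTEC-I libraries, 54.2 and 61.8 in those of mTEC-II, 115 and 119 in those of mTEC-III and 75.9 and 53.2 in those of mTEC-IV. Both were highest in mTEC-III. The highest mean was 1.57 and 2.02 times the lowest at these peaks and 8.4 times at the far one; the difference between peaks was not tested. Their F tests (limma adjusted p = 0.00865 and 0.0165) were lost without mTEC-III replicate 1 (0.0825 and 0.118) and mTEC-IV replicate 2 (0.0501 and 0.0559), and that of the peak 2.3 kb upstream also without mTEC-III replicate 2 (0.125), within ranges from 1.61e-05 to 0.0825 and from 4.17e-05 to 0.125. The far peak held 17.5% of the Krt10 tags in mTEC-III and 3.09% to 8.94% in the other populations.

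Neither Krt1 peak was at the start site. The peak 4.9 kb into the gene (chr15:101675288-101677358, 3′ untranslated region of exon 9) was at 70.5 to 95.3 over all libraries and did not pass the F test (limma adjusted p = 0.914). The other (chr15:101689394-101691523), 9.2 kb upstream, is annotated to exon 9 of the neighbouring keratin gene Krt77 and is given to Krt1 by distance. It was at 104 and 85.2 in mTEC-I libraries, 91.5 and 109 in mTEC-II libraries, 107 and 111 in mTEC-III libraries and 159 and 195 in mTEC-IV libraries, and passed the F test (limma adjusted p = 0.00661), though not without mTEC-IV replicate 2 (0.138), within a range from 1.07e-05 to 0.138. Of the Krt1 peaks, the one that passed thus lies inside another gene.

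In the authors' deposited peak lists, 1 for each population with the replicates combined, the number of keratin peaks varied, as the share of all merged peaks did. The mTEC-I list of 7036 peaks overlapped 5 of the 18 keratin peaks by at least 1 base, against 23.4% of all merged peaks that came from it. The mTEC-II list (23949 peaks) overlapped 15 (80.2% of all merged peaks), the mTEC-III list (19321) 16 (64.5%) and the mTEC-IV list (22757) 13 (75.5%). No list peak of mTEC-IV overlapped the peaks of Krt5, Krt14 or Krt17, and the far Krt10 peak and the upstream Krt5 peak appeared in the mTEC-III list only. The authors' deposited table of mTEC-IV ranked the Krt18 start peak 278th and the peak between Krt8 and Krt18 510th by tag count, and the authors' deposited table of mTEC-III ranked Krt17 701st. Lists of such different lengths say little of a change from presence or rank.

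Of the other keratin genes, 11 had a peak and 9 passed the F test (42.7% of all genes did). In mTEC-I, 8 were lower than in mTEC-III (12.7% of all genes). In mTEC-III, 5 were higher and 1 lower than in mTEC-IV (10.3% and 18.4%). The 3 of smallest p are given next. Krt23, a type I keratin of simple epithelia, was at 20.9 and 17.6 in the mTEC-I libraries, 79.8 and 91.8 in those of mTEC-II, 334 and 288 in those of mTEC-III and 227 and 222 in those of mTEC-IV. Krt78, a type II keratin of stratified epithelia, was at 99.8 and 82.3 in mTEC-I libraries, 154 and 148 in mTEC-II libraries, 319 and 340 in mTEC-III libraries and 168 and 179 in mTEC-IV libraries. Krt42 was at 198 and 270 in the mTEC-I libraries, 285 and 287 in those of mTEC-II, 586 and 529 in those of mTEC-III and 249 and 220 in those of mTEC-IV. The means of all 3 were highest in mTEC-III, as that of Krt10 was (limma F test adjusted p = 1.05e-09, 7.19e-07 and 4.49e-06). For Krt23, mTEC-III and mTEC-IV were not told apart (0.47, limma adjusted p = 0.073).

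Genes of proteins that bind keratin filaments or help to anchor them were tested as a list of 15, of which 11 passed the F test (42.7% of all genes). In mTEC-II over mTEC-III, 7 were lower (3.99% of all genes), and the median of the list was -0.59 against -0.06 over all genes. Jup, which encodes plakoglobin of desmosomes, was at 484 and 376 in mTEC-I libraries, 382 and 371 in mTEC-II libraries, 757 and 757 in mTEC-III libraries and 506 and 484 in mTEC-IV libraries, with both mTEC-III libraries above the rest. Dst, which encodes a plakin of hemidesmosomes, was at 717 and 776 in the mTEC-I libraries, 625 and 611 in those of mTEC-II, 487 and 594 in those of mTEC-III and 946 and 924 in those of mTEC-IV. Eppk1, the keratin-binding epiplakin, was at 310 and 335 in mTEC-I libraries, 170 and 185 in mTEC-II libraries, 274 and 320 in mTEC-III libraries and 414 and 395 in mTEC-IV libraries. Jup was highest in mTEC-III and Dst and Eppk1 in mTEC-IV (limma F test adjusted p = 2.29e-05 for Jup, 3.58e-05 for Dst and 5.07e-05 for Eppk1).

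Transcription factor genes with a role in keratin expression made a list of 20, of which 19 were tested and 17 passed the F test (42.7% of all genes). mTEC-I was lower than mTEC-III for 11 of them and higher for 2, and lower than mTEC-IV for 10 and higher for 2 (12.7%, 13.8%, 18.7% and 12.6% of all genes). Ehf, an epithelial ETS factor, was at 829 and 793 in the mTEC-I libraries, 717 and 697 in those of mTEC-II, 951 and 1076 in those of mTEC-III and 1776 and 1844 in those of mTEC-IV. Klf5, a factor of proliferating epithelia, was at 796 and 855 in mTEC-I libraries, 733 and 737 in mTEC-II libraries, 1057 and 1130 in mTEC-III libraries and 1751 and 1794 in mTEC-IV libraries. Foxn1, the master regulator of thymic epithelium, ran the other way, at 460 and 455 in the mTEC-I libraries, 609 and 606 in those of mTEC-II, 413 and 469 in those of mTEC-III and 175 and 185 in those of mTEC-IV. The limma F test adjusted p was 1.59e-08, 1.69e-08 and 3.93e-08 for Ehf, Klf5 and Foxn1.

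Pearson r of log2 levels over the 8 libraries describes which genes had a pattern most like each keratin; the points share their population and depth. Among the members, r was 0.986 between Krt8 and Krt18, 0.871 between Krt5 and Krt14, -0.992 between Krt17 and Krt8 and -0.103 between Krt1 and Krt10. Of genes on other chromosomes, the most alike were Ddr1 (0.995) and Efcab1 (0.992) for Krt5, Serpinb1a (0.994) and Rep15 (0.993) for Krt14, and 1810011O10Rik (0.993) and Msln (0.992) for Krt17. They were Tspan4 (0.995) and Arhgef17 (0.994) for Krt7, Mir378b (0.994) and Pknox1 (0.993) for Krt8, Nedd1 (0.996) and Arhgef10 (0.995) for Krt18, and Ostf1 (0.993) and BC016579 (0.992) for Krt19. For Krt1 they were Farsb (0.981) and Il10rb (0.978), and for Krt10 Dapl1 (0.996) and Mall (0.99). Dapl1, the nearest to Krt10, was at 282 and 282 in mTEC-I libraries, 157 and 180 in mTEC-II libraries, 576 and 574 in mTEC-III libraries and 223 and 211 in mTEC-IV libraries.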

How the data were processed

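H3K4me2 was profiled in 8 libraries of 4 mTEC populations; 8 whole-cell extract samples were not analysed here. The authors deposited a merged peak table annotated on mm9, per the labels and the file headers, with a signal per peak and library that the file headers give as normalized to 10000000 tags, and a peak list per population with its own normalized tag count and fold over control. The submitters' processing notes name bcl2fastq 2.15.0.4 and Picard 1.108, with aligner and peak caller not given in the sources used here. Every value was a whole multiple of 0.5 tags within 0.1 tags (100.0% in each library), and these tags served the edgeR, DESeq2 and voom alternatives.

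Of 29472 merged peaks, 2 mitochondrial ones were left out. Levels were summed per annotated gene, and log2(level + 1) was fitted with limma 3.58.1 (trended variance, R 4.3.3) over all features with at least 10 in at least 2 libraries, Benjamini-Hochberg adjusted within each pair; calls have an adjusted p under 0.05. A log2 difference on this scale understates the change of low peaks. The design planned 8 libraries, but the mTEC-II replicates agreed within sampling noise (chi-square over its degrees of freedom 0.999, p = 0.551, against 1.06 to 1.07 in the other populations) and entered as their mean, leaving 7 samples. The fit was tested on simulated data. Alternatives covered pseudocount, filter, scaling, tool, weights, distance to the start and each library left out. Named genes were all members, up to 3 genes of smallest F test p in each list, and the 2 genes of highest r on another chromosome. Distances are from a peak's centre to the annotated start. Members and lists were chosen with earlier results of these data known.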

Additional observations from a re-analysis of the deposited data

How the results depend on the processing

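Of the 54 gene and pair combinations, 31 to 38 were called under the other scalings, tools, filters and pseudocounts, and 28 when peaks over 1 kb from a start were dropped, where Krt1 has no value; 8 or 9 genes passed the F test. Leaving out 1 library gave 27 to 36 gene pairs, 8 to 9 genes, 30 to 61 peak pairs and 10 to 17 peaks. Counting the mTEC-II libraries as 2 samples, an alternative chosen after seeing the data, gave 36 gene pairs and 60 peak pairs. With each population list cut to its stronger part (rank above the median), 22 of the 72 combinations of a peak and a list overlapped, against 49 with the whole lists. Over all genes, 6724 of 15738 passed the F test, against 8426 with edgeR and 8551 with voom on the recovered tags and 6130 with DESeq2. The deviations of same-numbered libraries correlated at -0.013 to 0.016 between populations. Replicates differed by little beyond counting noise (chi-square over its degrees of freedom 0.999 to 1.069). These correlations therefore cannot show whether same-numbered libraries shared a batch. With the replicate block 32 gene pairs, 9 genes, 47 peak pairs and 15 peaks passed. The signs that turned belonged to pairs not called in the first place: Krt17 mTEC-I over mTEC-III was -0.012 to 0.273 with 1 library left out; Krt8 mTEC-I over mTEC-III was -0.009 to 0.108 with 1 library left out and -0.087 with start-site peaks, where mTEC-II over mTEC-III was -0.010; Krt18 mTEC-I over mTEC-II was -0.006 with equal totals in peaks and -0.003 with TMM. Krt1 mTEC-I over mTEC-II was 0.078 with edgeR, 0.059 with DESeq2, 0.112 with voom, 0.001 with the mTEC-II libraries as 2 samples and -0.172 to 0.168 with 1 library left out, and mTEC-I over mTEC-III was -0.314 to 0.026 with 1 library left out. The cause was not tested. The scalings moved the median gene by at most 0.13 on the log2 scale (mTEC-II over mTEC-IV, from -0.08 to 0.06 with equal totals in peaks). Depth limits the least covered peaks: mTEC-I replicate 2 held 2 tags in the far Krt10 peak.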
